A study of Homo sapiens with 9 samples.

Results

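Gene expression after 72 h of transforming growth factor beta 1 (TGF-β1) was compared with that of untreated controls in UPCI-SCC-040, a line established from oral (tongue) squamous carcinoma. The comparison took the libraries whose titles name a 72 h treatment or a control, which made 6 of the 9 RNA-seq libraries of the series, 3 in each group. Treated cells received TGF-β1 at 5 ng/ml for 72 h in medium from which serum and antibiotics had been left out, whereas the growth medium of the line contained serum. Controls received no TGF-β1, their titles carry 0 h, and the labels do not state whether they were kept without serum. The ligand, the loss of serum and the days in culture therefore cannot be told apart in any result below. Replicates 1, 2 and 3 of both groups are cells of passages 12, 13 and 8, and all libraries came from a single line. No label beyond the passage sets the replicates apart as cultures of their own, so the p-values reflect nothing beyond the spread of these samples, which may be technical.

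TGF-β1 binds serine/threonine kinase receptors that phosphorylate SMAD2 and SMAD3, which then join SMAD4 and act on target genes in the nucleus. In epithelial cells the pathway is known for arrest of the cell cycle through the inhibitors p15 and p21, for induction of matrix, integrin and protease-inhibitor genes, and for the epithelial to mesenchymal transition. Squamous carcinomas often keep the matrix response while losing part of the arrest.

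The 6 libraries held 13288016 to 18153278 counts, and levels are given as CPM (counts scaled to a common library size) at TMM-scaled library sizes. Markers matched the labelled epithelial line. All 15 keratinocyte markers were detected in every library, with the basal keratin KRT5 at 4772 to 7856 CPM in controls and 3371 to 7281 CPM at 72 h, and their summed level ran from 14646 to 24791 CPM in controls and from 22607 to 31980 CPM at 72 h. By the edgeR test described below, 3 of the 15 were called higher (KRT14, SFN and DSG3) and 2 lower, against 20.4% and 19.4% of all tested genes. The KRT14 call was lost without control 2, control 3 or 72 h replicate 1 (edgeR adjusted p = 0.073 to 0.0839). KRT8 was called lower (log2 fold change -1.54), a call lost without control 2, control 3 or 72 h replicate 2. EPCAM went from 155, 203 and 171 CPM in controls to 120, 107 and 144 CPM at 72 h, without overlap. Of 12 fibroblast markers 5 had enough counts to be tested, and the summed level was 131 to 155 CPM in controls and 483 to 552 CPM at 72 h. DCN was at 0 in all 6 libraries, and PDGFRA, LUM, THY1 and DPT did not exceed 0.185 CPM. COL1A2 went from 0.181, 0.483 and 0.932 CPM in controls to 2.48, 1.77 and 20.8 CPM at 72 h. PDGFRB and COL3A1 were highest in 72 h replicate 3, at 0.803 and 0.618 CPM. Of 15 leukocyte markers 3 were tested, with sums of 1.45 to 2.73 CPM in controls and 1.08 to 2.78 CPM at 72 h and with CD2, NKG7 and TYROBP among those at 0. Sums of the 10 endothelial markers were 14 to 14.8 CPM and 15.8 to 23.6 CPM, with KDR and EMCN at 0, and those of the 12 melanocyte and neural markers were 35.7 to 44.1 CPM and 38.0 to 93.5 CPM, with TYR, SOX10 and S100B at 0.

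The 72 h library of replicate 3 stood apart. On the first principal component of the 6 libraries (70.6% of the variance) controls lay between -62.6 and -51, 72 h replicates 1 and 2 at 32.7 and 39.6, and replicate 3 at 98.3. MALAT1, a nuclear noncoding RNA, held 1.54% of its counts, compared with 0.437% and 0.409% in 72 h replicates 1 and 2 and 0.247% to 0.351% in controls. Pearson correlations between libraries, across genes, were 0.989 to 0.990 in controls and 0.951 to 0.984 at 72 h. Results that rest on this library are given with and without it.

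By the quasi-likelihood test of edgeR, adjusted by Benjamini-Hochberg, 6152 of 15440 tested genes (39.8%) passed an adjusted p of 0.05. Of these, 3151 (20.4% of tested genes) were higher and 3001 (19.4%) lower at 72 h, and 3023 changed at least 2-fold, 1714 upward and 1309 downward. The median log2 fold change over all tested genes was 0.03, with 5th and 95th percentiles of -1.42 and 1.79. The ranges of the 3 treated and 3 control libraries were separate in 8501 genes (55.1%). Counts for the gene groups below are read against these shares. Without 72 h replicate 3 there were 2891 higher and 2841 lower genes, and 5153 of the 6152 calls were kept. Counts were 2133, 2039 and 2252 higher without control 1, 2 and 3, so that control 2 moved the higher count by more than 1.5 times. In bulk RNA, fewer cells of a kind and less RNA per cell cannot be told apart.

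**Figure D1:**
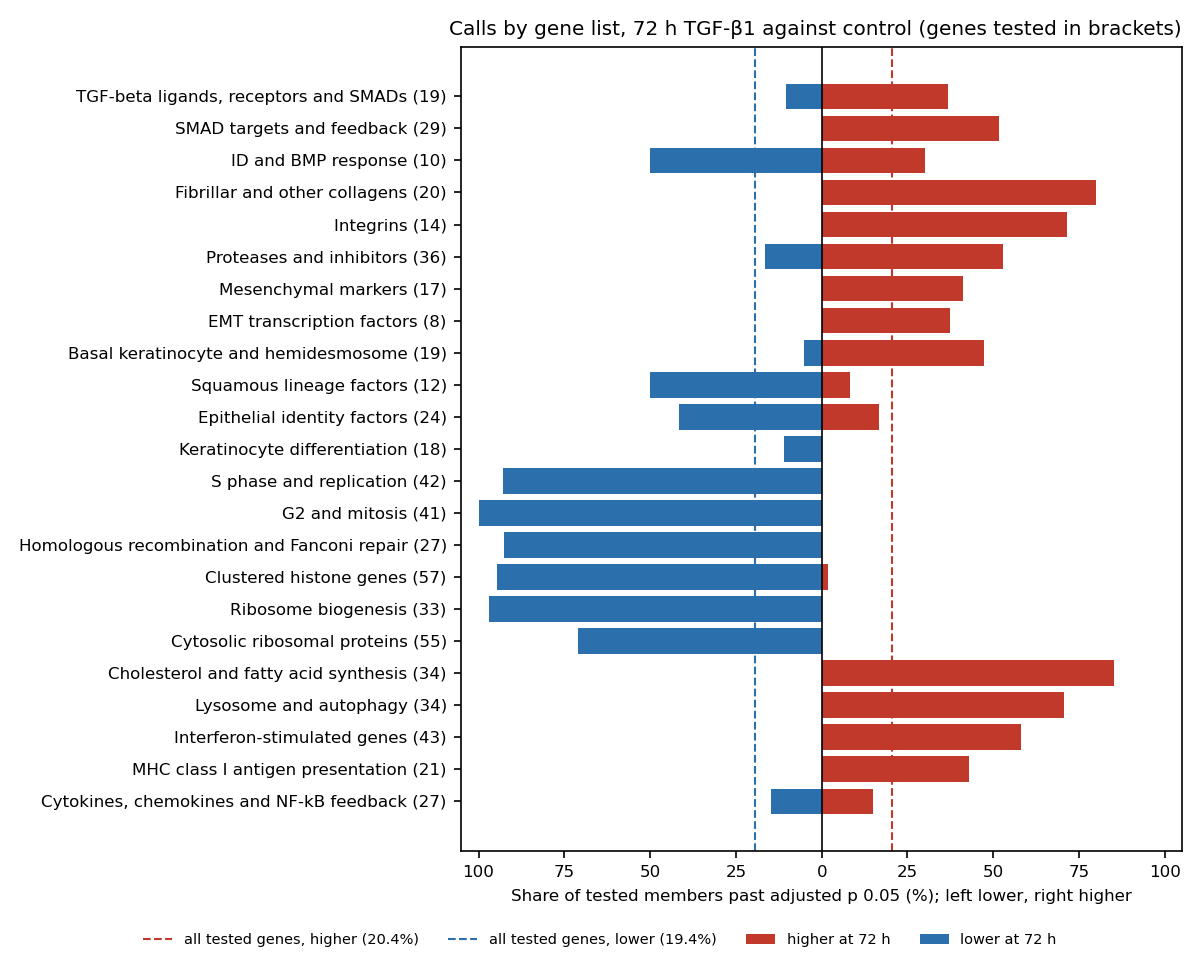
Bars give the share of tested members of each gene list that were called higher (right, red) or lower (left, blue) at 72 h, in percent, with the number tested in brackets and dashed lines at the shares over all tested genes (20.4% and 19.4%). All 41 G2 and mitosis genes and 39 of 42 S phase genes lie to the left, and 29 of 34 cholesterol and fatty acid genes lie to the right.

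Interferon-stimulated genes and genes of G2 and mitosis, whose list medians lay far from 0 in opposite directions, are known for short promoter elements, the interferon-stimulated response element (ISRE) and the cell cycle genes homology region (CHR). RefSeq promoters (GRCh38.p14) were matched for 11002 of the tested genes, and the 250 bases before the start were searched on both strands for fixed letters, each motif on its own so that matches may overlap. ISRE-like letters, TTTCNNTTT, were present in 23 of 34 interferon-stimulated promoters (67.6%), in 679 of all 11002 (6.17%) and in 146 of the 2347 promoters of genes called higher (6.22%). The windows of the 6 members with the largest changes that held these letters are shown to let the element be compared. Capitals mark the match nearest to the start, on either strand, with up to 30 bases on each side. Any further match inside a window is in lower case, and matches outside the window are not shown.
IFI44L: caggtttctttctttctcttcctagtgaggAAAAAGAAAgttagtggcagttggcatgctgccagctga
XAF1: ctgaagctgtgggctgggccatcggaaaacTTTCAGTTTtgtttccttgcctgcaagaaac
OAS1: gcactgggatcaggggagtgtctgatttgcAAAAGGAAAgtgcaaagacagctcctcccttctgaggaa
IFITM1: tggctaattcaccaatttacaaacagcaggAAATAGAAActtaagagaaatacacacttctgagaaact
SAMD9L: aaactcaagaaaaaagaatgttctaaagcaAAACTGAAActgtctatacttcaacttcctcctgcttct
IFI6: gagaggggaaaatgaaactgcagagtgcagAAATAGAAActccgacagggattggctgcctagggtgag
They lie, in that order, at chr1:78620346-78620414 (plus strand), chr17:6755985-6756045 (plus), chr12:112906879-112906947 (plus), chr11:313971-314039 (plus), chr7:93148394-93148462 (minus) and chr1:27672246-27672314 (minus), and their genes had log2 fold changes of 7.22, 6.03, 5.08, 5.00, 4.30 and 3.94. The capitals end 64, 23, 45, 31, 39 and 84 bases before the RefSeq start. A match is a description of letters, not of a bound site.

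CHR letters, TTTGAA, were present in 20 of 35 G2 and mitosis promoters (57.1%), in 950 of all 11002 (8.63%) and in 289 of the 2316 promoters of genes called lower (12.5%). The 5 members with the largest changes that held them are shown in the same way.
MKI67: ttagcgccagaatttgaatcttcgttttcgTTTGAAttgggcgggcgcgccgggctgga
DLGAP5: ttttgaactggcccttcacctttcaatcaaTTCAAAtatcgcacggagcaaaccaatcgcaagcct
CDC20: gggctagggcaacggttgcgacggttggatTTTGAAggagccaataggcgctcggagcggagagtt
HMMR: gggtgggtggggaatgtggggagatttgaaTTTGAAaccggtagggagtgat
PLK1: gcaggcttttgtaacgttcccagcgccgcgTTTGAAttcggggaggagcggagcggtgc
These windows lie at chr10:128126424-128126482 (minus strand), chr14:55191659-55191724 (minus), chr1:43358886-43358951 (plus), chr5:163460580-163460631 (plus) and chr16:23678830-23678888 (plus), with the capitals ending 24, 104, 60, 17 and 24 bases before the start. The short CCAAT box, CCAAT, was in 27 of 35 G2 and mitosis promoters (77.1%) and in 18 of 27 promoters of cholesterol and fatty acid synthesis (66.7%), against 3853 of 11002 (35.0%). E2F-like letters, TTTCCCGC, were in 9 of 36 S phase promoters (25%) against 238 (2.16%). Sterol-element letters, TCACCCCAC, were in 1 of 27 cholesterol and fatty acid promoters against 38 (0.345%), and the SMAD palindrome GTCTAGAC was in 1 of 21 promoters of SMAD targets against 16 (0.145%).

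**Figure D2:**
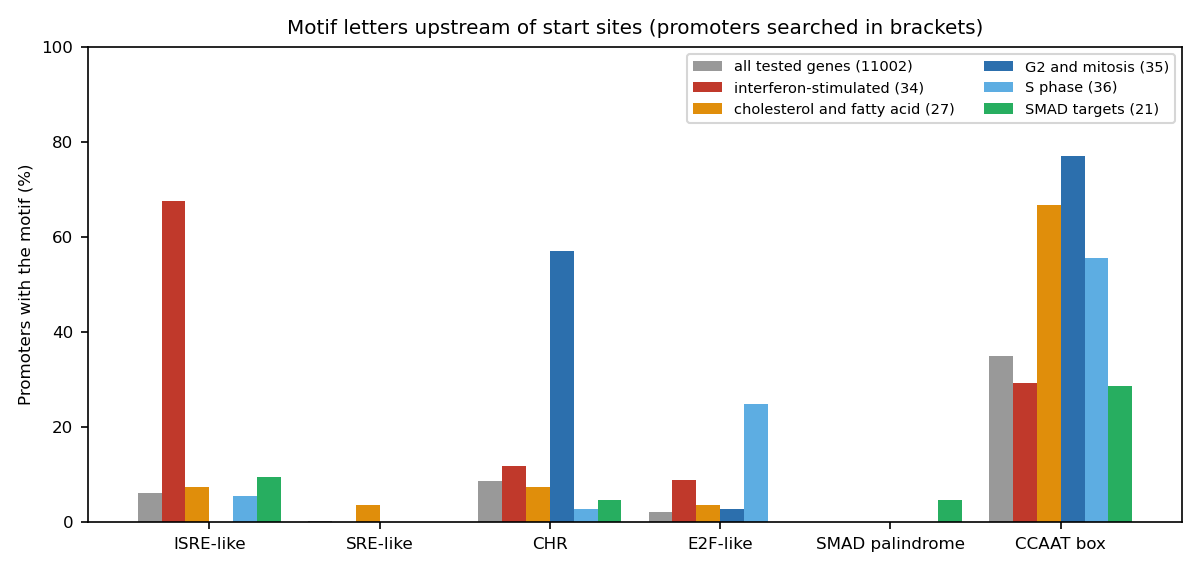
Bars give the percent of promoters that hold each motif's letters in the 250 bases before the RefSeq start, for all tested genes (grey) and for tested members of 5 lists, with the number of promoters in brackets. ISRE-like letters reach 67.6% in interferon-stimulated promoters and CHR letters 57.1% in G2 and mitosis promoters, against 6.17% and 8.63% of all promoters.

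Components of the TGF-β pathway moved both ways. TGFB1 itself, on chromosome 19 (41301587 to 41353911, minus strand, GRCh38), was at 28.8, 26.2 and 36.7 CPM in controls 1 to 3 and at 65.9, 70.4 and 83.1 CPM in the 72 h libraries. The groups did not overlap, and the log2 fold change was 1.26 ± 0.20 (approximate SE, n = 3 each; edgeR adjusted p = 0.00142). TGFB2, which encodes another ligand, fell from 11.8 to 15.6 CPM in controls to 0.912 to 5.19 CPM (-1.96 ± 0.49, adjusted p = 0.0123). LTBP2, a matrix protein of the family named for binding latent TGF-β, rose by 1.76 ± 0.18 (adjusted p = 0.000294). ACVR1, a type I receptor of the TGF-β family, rose by 1.48 ± 0.25 (adjusted p = 0.00186). The receptor gene TGFBR1 was at 181, 152 and 155 CPM against 224, 222 and 210.0 CPM and rose by 0.42 ± 0.13 (adjusted p = 0.0245), and TGFBR2, for the other receptor, overlapped between groups (71.4 to 81.9 against 64.2 to 99.3 CPM) with a log2 fold change of 0.05 ± 0.21 (adjusted p = 0.871). SMAD3, a signal transducer, fell from 67.7 to 78.8 CPM to 27.6 to 32.2 CPM (-1.29 ± 0.19, adjusted p = 0.00118), while SMAD2 and SMAD4 had log2 fold changes of 0.03 and 0.07 and did not pass. Of 19 tested genes of 20 for ligands, receptors and SMADs, 7 rose and 2 fell, with a median of 0.42. The TGFBR1 call was lost on leaving out control 2 or 3 or 72 h replicate 1 or 2 (adjusted p = 0.0532 to 0.102).

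Known SMAD targets rose as a group, 15 of 29 tested genes of 30 against 20.4% of all genes, and 0 fell, with a median log2 fold change of 1.15. The inhibitory SMAD7, a feedback gene of the pathway, was at 88.9, 77.9 and 67.8 CPM against 167, 147 and 125 CPM (0.91 ± 0.15, adjusted p = 0.0018). The lowest treated library lay above the highest control. CDKN2B, which encodes p15, was at 15.7, 11.1 and 13.8 CPM in controls and 66.5, 45.5 and 231 CPM at 72 h (3.08 ± 0.67, adjusted p = 0.00799, and 2.05 without 72 h replicate 3). The integrin subunit gene ITGB6, whose product activates latent TGF-β, rose by 2.55 ± 0.54 (adjusted p = 0.00694, and 1.80 without 72 h replicate 3), and the cytokine gene IL11 by 2.29 ± 0.20 (adjusted p = 0.000214). Several textbook targets did not pass, among them CTGF (log2 fold change -0.22), CYR61 (0.00), SMAD6 (0.00) and ANGPTL4 (0.16). Within passages the list median was 1.25, 1.00 and 0.98 in replicates 1, 2 and 3.

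Genes of the ID and BMP branch were split between falls and rises. ID3, an inhibitor of basic helix-loop-helix factors on chromosome 1 (23557918 to 23559794, minus strand), was at 57.6, 64.7 and 26.6 CPM in controls and 4.74, 1.48 and 2.78 CPM at 72 h (-4.05 ± 0.48, adjusted p = 0.000663). ID1 fell from 188, 188 and 70.2 CPM to 16.9, 25.8 and 5.62 CPM (-3.20 ± 0.63, adjusted p = 0.00525), and ID2 fell by 2.88. The lowest control, replicate 3, still lay above every treated library for both ID3 and ID1. The ligand gene BMP4 rose by 3.00 ± 0.52 and the BMP antagonist gene NOG by 3.17 ± 0.74 (adjusted p = 0.00238 and 0.00967), both from about the level of 1 CPM, and the antagonist gene FST rose by 1.02. BMP7 and BMP2 fell by 2.64 and 0.80. Of 10 tested genes of 17, 3 rose and 5 fell. NOG rose by 2.25 without 72 h replicate 3.

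Collagen genes rose widely. COL5A1, a fibrillar collagen chain on chromosome 9 (134641774 to 134844843, plus strand), was at 78.1, 94.2 and 79 CPM in controls and at 735, 517 and 852 CPM at 72 h. Its log2 fold change was 3.06 ± 0.20 (adjusted p = 7.15e-05), and every treated library exceeded every control more than 5-fold. The other chains of collagen V rose with it, COL5A2 by 3.85 ± 1.21 and COL5A3 by 3.41 ± 0.96 (adjusted p = 0.0347 and 0.0224), but from levels under 4 CPM in controls and to 116 and 31.9 CPM in 72 h replicate 3 alone. Of 20 tested collagen genes of 23, 16 rose and 0 fell, with a median of 1.61. The 16 included chains of the basement membrane (COL4A1, COL4A2, COL4A5, COL4A6, COL18A1), of anchoring structures (COL7A1, COL17A1) and of microfibrils (COL6A1, COL6A2, COL6A3). The number fell to 10 without control 2 or without control 3, and was 15 without 72 h replicate 3. COL5A2 had a log2 fold change of 1.36 without 72 h replicate 3 and lost its call without that library or any 1 control (adjusted p = 0.0869 to 0.143). COL5A3 had one of 2.08 without 72 h replicate 3 and 4.0 without control 1, and its call was lost on leaving out control 2 or 3 (adjusted p = 0.0551 and 0.0602).

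Other matrix genes were split. TGM2, a transglutaminase that cross-links matrix proteins, was at 0.663, 1.18 and 2.44 CPM in controls and 8.29, 9.23 and 6.73 CPM at 72 h (2.52 ± 0.45, adjusted p = 0.00261). TGFBI, a secreted adhesion protein named for its induction by TGF-β, rose from 745 to 1078 CPM to 1665 to 3813 CPM (1.70 ± 0.36, adjusted p = 0.00562). HSPG2, which encodes perlecan, rose by 1.71 ± 0.23 and FSTL3, an activin-binding protein, by 1.83 ± 0.41 (adjusted p = 0.000767 and 0.00832). EFEMP1, a fibulin, fell by 1.51 ± 0.25 (adjusted p = 0.00199). Of 23 tested matrix glycoprotein and cross-linking genes of 31, 6 rose and 2 fell, and LOXL3 was the other that fell. The share called was 34.8%, against 39.8% of all tested genes. Without any 1 control 1 gene fell in place of 2. TGM2 rose by 3.11 without control 3.

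Integrin genes rose in 10 of 14 tested genes of 17, and 0 fell, with a median of 1.47. ITGA2, the collagen-binding subunit, was at 222, 200 and 247 CPM in controls and at 1049, 1577 and 1076 CPM at 72 h (2.47 ± 0.27, adjusted p = 0.000411). Subunits for fibronectin and laminin receptors rose as well, ITGA5 by 1.71, ITGA6 by 1.26 and ITGA3 by 1.04. ITGA10 rose by 4.10 ± 1.03 (adjusted p = 0.0137) from under 0.4 CPM, and by 2.04 without 72 h replicate 3, where it reached 14.5 CPM. ITGAV was at 1070 and 968 CPM in 72 h replicates 1 and 2 and 3982 CPM in replicate 3, against 416 to 471 CPM in controls (2.19 ± 0.61, adjusted p = 0.0209, and 1.22 without that library). The count was 6 without control 1 or without control 2 and 12 without 72 h replicate 3. ITGAV lost its call without any 1 control (adjusted p = 0.0599 to 0.0721), and ITGA10 without control 1 or control 2 (0.0554 and 0.0511).

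Proteases and their inhibitors rose in 19 and fell in 6 of 36 tested genes of 38. SERPINE2, a secreted inhibitor of serine proteases, rose from 91.6, 74.3 and 84.1 CPM to 929, 1147 and 732 CPM (3.49 ± 0.25, adjusted p = 0.000144). The metalloprotease genes MMP2, MMP14 and MMP11 rose by 2.29, 2.21 and 1.99, and the tissue inhibitor genes TIMP1, TIMP2 and TIMP3 by 1.44, 2.28 and 2.03. The falls were of another kind, with 5 of the 6 in kallikrein-related peptidases, enzymes of the stratified epithelium. KLK6 fell from 2.23, 2.04 and 1.43 CPM to 0.451, 0.228 and 0.185 CPM (-2.69 ± 0.43, adjusted p = 0.00157), and KLK7, KLK8, KLK10 and KLK5 fell by 2.34, 2.10, 1.62 and 1.29. The sixth was SERPINB2 (-2.70 ± 0.71, adjusted p = 0.0155), which lost its call without control 3 (0.057) and stood at -3.64 without 72 h replicate 2. MMP28 rose by 2.83 ± 0.81 (adjusted p = 0.0245), or 1.27 without 72 h replicate 3, and lost its call without any 1 control (0.0579 to 0.0829).

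Mesenchymal genes rose in part, and neither cadherin gene passed the test, while the vimentin call differed between tools. VIM, the intermediate filament of mesenchymal cells, was at 208, 204 and 200 CPM in controls and 463, 485 and 210 CPM at 72 h. Replicates 1 and 2 were well above controls and replicate 3 was not (0.92 ± 0.37, adjusted p = 0.0757, and 0.0129 without replicate 3). VIM also passed in DESeq2 (adjusted p = 0.032), with voom weights (0.0208) and with the 6 libraries alone (0.0465). CDH1, the E-cadherin gene, was at 361, 240 and 284 CPM against 360, 343 and 406 CPM, with overlap (0.32 ± 0.18, adjusted p = 0.165). CDH2, the N-cadherin gene, at 8.5, 23.7 and 11 CPM against 15.3, 8.95 and 6.86 CPM, also overlapped (-0.48 ± 0.41, adjusted p = 0.368). The fibronectin gene FN1 was at 8.92, 10 and 53.8 CPM in controls and 97.7, 63.1 and 240 CPM at 72 h (2.47 ± 0.97, adjusted p = 0.0737). FN1 passed with passage as a replicate block (adjusted p = 0.000247), in DESeq2 (0.0359) and without control 3 (3.81, adjusted p = 0.0289). It stood at 1.75 without 72 h replicate 3 (adjusted p = 0.233). Of 17 tested mesenchymal markers of 22, 7 rose and 0 fell, with a median of 0.92. Among them L1CAM, a neural adhesion molecule, rose by 2.57 ± 0.48 (3.24 without control 3) and FAP, a membrane serine protease, by 2.55 ± 0.47 (adjusted p = 0.00333 and 0.00359). FAP, COL1A1, COL6A3 and PDPN were also the 4 fibroblast markers called, of 5 tested. COL1A2 was tested and did not pass, and DCN, PDGFRA, LUM, THY1 and DPT were at or near 0, as given above. COL1A1 rose by 2.29 ± 0.55 (adjusted p = 0.0122, and 1.70 without 72 h replicate 3). S100A4 rose by 3.02 ± 0.96 (adjusted p = 0.0364), or 1.14 without 72 h replicate 3, and lost its call without that library or any 1 control (0.081 to 0.126). COL6A3, which overlapped between groups at up to 2.85 CPM, was no longer called on leaving out control 2 or 3 or 72 h replicate 1 or 2 (0.064 to 0.109).

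SOX4, a transcription factor linked to this transition, rose from 26.3, 16.6 and 22.3 CPM to 54.3, 57.4 and 51.7 CPM (1.33 ± 0.20, adjusted p = 0.00126). TWIST2 and SNAI2 had log2 fold changes of 1.19 ± 0.41 and 0.42 ± 0.15 (adjusted p = 0.0419 and 0.0409), and these 3 were the rises among 8 tested factors of 13, with 0 falls. Only 1 was left without any 1 control. The SNAI2 call was lost on leaving out any control or 72 h replicate 1 or 3 (0.0782 to 0.152), and that of TWIST2 without 72 h replicate 3 or any 1 control (0.0592 to 0.139). SNAI1 did not exceed 0.358 CPM and ZEB1 did not exceed 0.788 CPM, and neither was tested. Contractile and actin-binding genes had 3 rises and 1 fall among 19 tested of 22 and a median of -0.04. That made 21.1% called, against 39.8% of all tested genes. The rises were PDLIM7, CALD1 and ZYX (0.97, 0.72 and 0.51), and the fall was MYLK, the myosin light chain kinase gene (-0.73 ± 0.18, adjusted p = 0.0102). Leaving out control 1 or control 2 left 1 rise, and there were 3 falls without 72 h replicate 1 or with the replicate block and 2 without 72 h replicate 2. PDLIM7 lost its call without control 1 (0.0544), CALD1 without control 2 (0.051) and ZYX without control 1, control 2 or 72 h replicate 1 (0.0832 to 0.112).

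**Figure D3:**
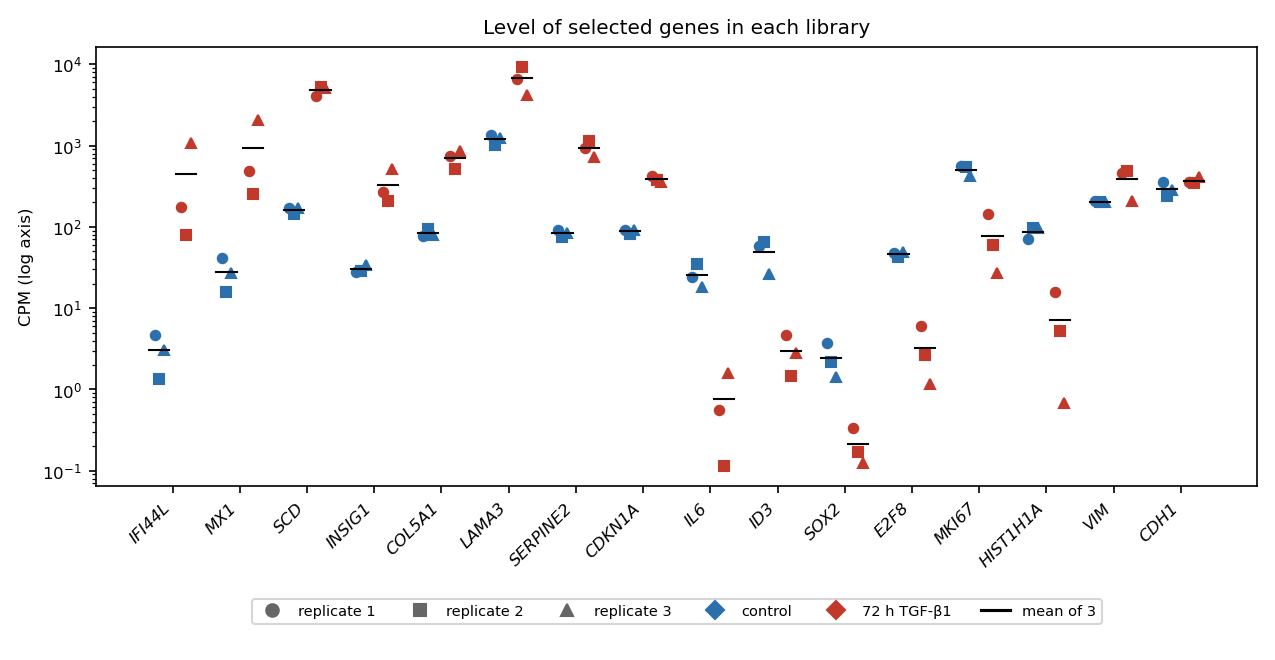
Points give CPM on a log axis for 16 genes in the 3 control (blue) and 3 treated (red) libraries, with a marker shape for each replicate and a black line at the mean of 3. SCD, COL5A1 and CDKN1A separate by group with little spread, IFI44L and HIST1H1A spread widely at 72 h, VIM of replicate 3 stays at 210 CPM, and CDH1 overlaps.

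Epithelial and squamous transcription factors were lower in part, and several of those that fell, such as SOX2 and FOXA1, were at low levels. SOX2, a lineage factor of squamous epithelium on chromosome 3 (181711924 to 181714436, plus strand), was at 3.74, 2.2 and 1.43 CPM in controls and 0.338, 0.171 and 0.124 CPM at 72 h (-3.49 ± 0.58, adjusted p = 0.0019). PAX9, a paired-box factor of oral epithelium, and BARX2, a homeobox factor, fell by 2.35 ± 0.57 and 1.89 ± 0.25 (adjusted p = 0.00999 and 0.000751). KLF4, a factor of epithelial differentiation expressed at a higher level, went from 252, 340 and 367 CPM to 132, 132 and 152 CPM (-1.20 ± 0.22, adjusted p = 0.00288). Of 12 squamous lineage factors, all tested, 1 rose and 6 fell, against 20.4% higher and 19.4% lower over all tested genes. TP63, the master factor of the basal lineage, had a log2 fold change of 0.03 that did not pass. Without control 2 there were 0 rises, and PAX9 stood at -3.30 without 72 h replicate 1.

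Among 24 epithelial identity genes, all tested, 4 rose, 10 fell and 10 did not pass, with a median of -0.41. FOXA1, a pioneer factor, fell from 2.47, 4.51 and 1.15 CPM to 0.282, 0.171 and 0.371 CPM (-3.29 ± 0.57, adjusted p = 0.00226), and OVOL2, a repressor of the mesenchymal programme, by 1.59 ± 0.41 (adjusted p = 0.0133). GRHL1, GRHL2, EHF, TFAP2A and TFAP2C fell by 1.19, 0.78, 1.01, 0.93 and 0.59. The rises were of surface and secreted proteins and 1 factor, with the claudin gene CLDN4 from 4.28, 7.89 and 5.3 CPM to 23.8, 20.8 and 20 CPM (1.88 ± 0.29, adjusted p = 0.00139), the protease inhibitor genes SPINT2 and SPINT1 (1.16 and 0.64) and FOXA2 (0.87). The splicing regulators ESRP1 and ESRP2 had log2 fold changes of -0.26 and -0.38 and did not pass. The falls numbered 6 without control 2. ELF3 fell by 2.85 ± 0.84 from at most 2.15 CPM (adjusted p = 0.0226), with values of -2.02 when control 2, -2.26 when 72 h replicate 1 and -4.20 when 72 h replicate 3 was left out, and lost its call without control 2, 72 h replicate 1 or 72 h replicate 2 (0.0515 to 0.123).

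Genes that anchor basal keratinocytes to the basement membrane rose in part. Genes for laminin chains of that membrane went up together. LAMA3 (chromosome 18, 23689443 to 23956222, plus strand) was at 1365, 1013 and 1237 CPM in controls and 6645, 9289 and 4170.3 CPM at 72 h (2.48 ± 0.40, adjusted p = 0.0017). LAMB3 rose to 7747, 8536 and 4919 CPM from 1407 to 1569 CPM (2.24 ± 0.30, adjusted p = 0.000811). In LAMA3 and LAMB3 replicate 2 was the highest treated library and replicate 3 the lowest, and all lay above all controls. The integrin subunit gene ITGB4 overlapped between groups, at 1620, 1308 and 1600 CPM in controls and 2714, 2827 and 1216 CPM at 72 h. KRT15, a keratin of basal cells, fell from 20.1, 23.5 and 16 CPM to 1.92, 6.1 and 3.27 CPM (-2.40 ± 0.36, adjusted p = 0.00126). Of 19 basal and hemidesmosome genes, all tested, 9 rose and 1 fell, with a median of 0.71, and 5 rose without control 2.

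Keratinocyte differentiation genes and genes of desmosomes and adherens junctions gave few calls, 11.1% and 15.8%, against 39.8% of all tested genes. Of 18 tested keratinocyte differentiation genes of 34, 0 rose and 2 fell, KRT80 from 37.3, 62.3 and 37 CPM to 6.99, 2.91 and 3.09 CPM (-3.39 ± 0.49, adjusted p = 0.00137) and S100A9 (-2.42 ± 0.80, adjusted p = 0.0387). S100A9 stood at -0.82 without control 1 and lost its call without that library or any 1 72 h library (0.0784 to 0.218), and with the replicate block 4 genes of the list rose. Desmosome and adherens junction genes had 2 rises and 1 fall among 19. The fall was PKP2, a plakophilin (-0.86 ± 0.16, adjusted p = 0.00339), and the rises were NECTIN2 (0.70 ± 0.14, adjusted p = 0.00491) and the cadherin gene DSG3 (1.22 ± 0.37, adjusted p = 0.0263), which lost its call without control 2, control 3 or 72 h replicate 3 (0.0664 to 0.0975). Tight junction genes had 4 rises and 4 falls among 17 tested of 18, so 47.1% were called. The shares over all tested genes were 20.4% higher and 19.4% lower. With the replicate block 2 tight junction genes rose. Without control 2 or control 3 they had 2 rises and 0 falls, without control 1 they had 2 and 1, without 72 h replicate 1 or 2 they had 4 and 2, and without 72 h replicate 3 they had 2 and 2. CLDN12 rose by 0.76 ± 0.16 (adjusted p = 0.00579).

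Genes of S phase and mitosis were lower in step. MKI67, the proliferation marker on chromosome 10 (128096659 to 128126385, minus strand), was at 557, 540 and 428 CPM in controls and 144, 59.3 and 27.1 CPM at 72 h (-2.73 ± 0.54, adjusted p = 0.00517). CCNA2, the cyclin of S phase and G2, was at 264, 241 and 254 CPM against 68.8, 33.7 and 17.3 CPM (-2.66 ± 0.45, adjusted p = 0.00281). In both genes 72 h replicate 1 was the highest treated library and replicate 3 the lowest, and all 3 were far below controls. KIF20A, a mitotic kinesin, and DLGAP5, a spindle protein, fell by 2.77 ± 0.47 and 2.62 ± 0.46 (adjusted p = 0.00277 and 0.00336). All 41 G2 and mitosis genes were tested and fell, against 19.4% of all genes, by 1.35 to 2.77 on the log2 scale and with a median of -2.23. That median was -1.87 without 72 h replicate 3, where all 41 still fell, and 11 fell without both libraries of replicate 2. Within passages it was -1.62, -2.20 and -3.34 in replicates 1, 2 and 3.

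In the S phase list 39 of 42 genes fell and 0 rose, with a median of -1.81, or -1.45 without 72 h replicate 3. There were 25 falls with no filter on low counts and 7 without both libraries of replicate 2. The largest fall was that of E2F8, an E2F-family repressor on chromosome 11 (19224063 to 19241620, minus strand), from 47.1, 42.9 and 49.2 CPM to 5.98, 2.68 and 1.17 CPM (-3.81 ± 0.48, adjusted p = 0.000799). E2F2, an activator of the same family, fell by 3.31 ± 0.44 (adjusted p = 0.000906), and ORC1, a subunit of the origin recognition complex, by 2.30 ± 0.41 (adjusted p = 0.0033). The replication factor gene MCM10 fell from 114 to 131 CPM to 46.5, 20.5 and 5.13 CPM (-2.36 ± 0.63, adjusted p = 0.0182) and lost its call without 72 h replicate 2 (0.0527). Repair genes that act at replication forks fell too, 25 of 27 homologous recombination and Fanconi genes, among them the nuclease gene EXO1 by 2.60 ± 0.52 and RAD51AP1, an accessory factor of recombination, by 2.07 ± 0.31 (adjusted p = 0.00594 and 0.00142). Leaving out 72 h replicate 1, the least changed library, enlarged several of these falls by over 1.5 times, to -4.58 for E2F8, -4.16 for E2F2, -3.27 for MCM10, -2.92 for ORC1, -3.56 for MKI67, -3.31 for CCNA2, -3.45 for KIF20A and -3.31 for EXO1.

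Histone genes of the replication-dependent clusters fell with the S phase genes. HIST1H1A, a linker histone gene on chromosome 6 (26017085 to 26017732, minus strand), was at 70.7, 96.1 and 96.2 CPM in controls and 15.7, 5.24 and 0.68 CPM at 72 h (-3.59 ± 0.80, adjusted p = 0.00864). HIST3H2A, a core histone gene of a smaller cluster, went from 28.8, 33.1 and 33.1 CPM to 4.17, 2.34 and 1.73 CPM (-3.52 ± 0.37, adjusted p = 0.000392), and HIST1H4F from 118, 165 and 146 CPM to 25.1, 13.8 and 1.36 CPM (-3.41 ± 0.75, adjusted p = 0.00859). Replicate 3 was the lowest treated library in all 3 genes, and lay more than 10-fold below replicate 1 in HIST1H1A and HIST1H4F. Of 57 tested genes of 71, 54 fell and 1 rose, with a median of -2.61, and the list's share of all counts went from 1.83%, 2.33% and 2.10% in controls to 0.649%, 0.334% and 0.141% at 72 h (exact permutation test, two-sided p = 0.1, the smallest that 3 against 3 allows). The rise was HIST1H4I (1.42 ± 0.41, adjusted p = 0.0223), which overlapped between groups and lost its call without control 2, control 3 or 72 h replicate 3 (0.052 to 0.0851). Reads of near-identical histone genes may be split between copies. Most messages of these clusters lack poly(A) tails. The falls numbered 21 with no filter on low counts and 10 without both libraries of replicate 2. HIST1H1A and HIST1H4F stood at -4.87 and -4.23 without 72 h replicate 1.

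Cyclin-dependent kinase inhibitors did not move as a block. CDKN1A, which encodes p21 on chromosome 6 (36676460 to 36687339, plus strand), was at 91.8, 80.7 and 91.7 CPM in controls and 429, 377 and 355 CPM at 72 h (2.14 ± 0.18, adjusted p = 0.000184). The rise was alike in the 3 passages, at 2.22, 2.22 and 1.95. CDKN1C, the p57 gene, rose by 1.67, and CDKN2B rose as given above. CDKN2C, the p18 gene, fell by 2.25 ± 0.50 (adjusted p = 0.00833, and 3.13 without 72 h replicate 1), and CDKN2D and CDKN1B fell by 1.04 and 0.75. Of cyclins and kinases of G1, CCND2 fell by 2.00 ± 0.44 (adjusted p = 0.00687, and 1.41 without control 2), CDK4 by 0.95 and CDK6 by 0.59, while CCND1 had a log2 fold change of 0.21 that did not pass. The list of 16 genes had 4 rises and 6 falls. Target genes of p53, a list that also holds CDKN1A, had 7 rises and 6 falls among 24 tested of 25. This share of 54.2% called stood against 39.8% of all tested genes. PLK3 and TP53INP1 were higher (1.73 ± 0.17 and 1.93 ± 0.23, adjusted p = 0.000272 and 0.000492) and MDM2, BAX and GADD45A lower (-0.39, -0.41 and -1.24). Leaving out control 1, 2 or 3 or 72 h replicate 2 left 3, 2, 2 and 2 falls.

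Genes linked to quiescence and FOXO factors were split, 6 rises and 4 falls among 22 tested of 23. That made 45.5% called, against 39.8% of all tested genes. TXNIP, a thioredoxin-binding arrestin that responds to glucose, fell from 345, 212 and 286 CPM to 32.9, 40.7 and 36.6 CPM (-2.93 ± 0.19, adjusted p = 6.32e-05), with every treated library at least 5-fold below every control. ARRDC4, its relative, fell by 2.25 ± 0.27 (adjusted p = 0.000532). YPEL3, a growth-suppressive gene, rose from 1.02, 1.29 and 2.22 CPM to 5.86, 6.5 and 7.41 CPM (2.13 ± 0.31, adjusted p = 0.00101).

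Genes of ribosome production were lower. NPM1, the nucleolar chaperone nucleophosmin, had a mean of 614 ± 73.6 CPM in controls and 228 ± 87.4 CPM at 72 h (SD, n = 3; -1.43 ± 0.27, adjusted p = 0.00314), and FBL, the rRNA methyltransferase fibrillarin, fell by 1.51 ± 0.30 (adjusted p = 0.00504). Of 33 ribosome biogenesis genes 32 fell and 0 rose, with a median of -1.12, or 29 and -0.98 without 72 h replicate 3. Cytosolic ribosomal protein genes fell in 39 of 55 and rose in 0, with a median of -0.79, or 36 and -0.56 without 72 h replicate 3, and 16 fell without control 2. RPS2 was at 215, 285 and 281 CPM against 135, 113 and 60.3 CPM (-1.34 ± 0.27, adjusted p = 0.00456). The share of counts in 86 ribosomal protein genes was 2.5%, 2.92% and 2.51% in controls and 1.60%, 1.85% and 1.04% at 72 h (exact permutation test, two-sided p = 0.1). The part of MALAT1's share in these falls was not tested. Its level was 3418, 2372 and 3277 CPM in controls and 4472, 4165 and 15618 CPM at 72 h (1.42 ± 0.47, adjusted p = 0.0375), and its call was lost without 72 h replicate 3 (0.52, adjusted p = 0.0672) or any 1 control (0.0815 to 0.124). Aminoacyl-tRNA synthetase genes had 2 rises and 4 falls among 20. WARS, the tryptophan enzyme that is also inducible by interferon, went from 154, 161 and 165 CPM to 246, 515 and 488 CPM (1.38 ± 0.27, adjusted p = 0.00428), and FARSB fell by 1.45 ± 0.31 (adjusted p = 0.0066). The other calls were AARS (0.88), VARS (-1.12), KARS (-0.73) and DARS (-0.66), of which AARS lost its call without control 1, control 3 or 72 h replicate 2 (0.0636 to 0.0874) and VARS without any 1 control (0.0506 to 0.0868). Rises and falls numbered 1 and 3 when control 1 or 3, 2 and 2 when control 2, and 1 and 5 when 72 h replicate 2 was left out.

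**Figure D4:**
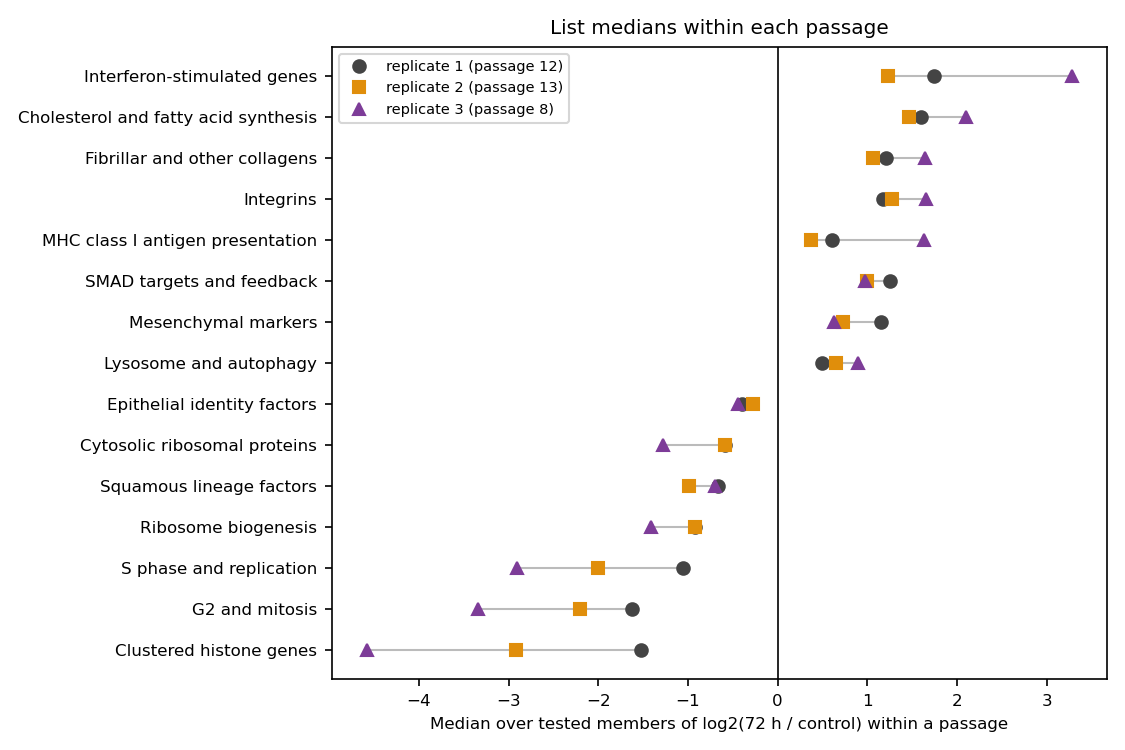
Markers give, for 15 gene lists, the median over tested members of the log2 ratio of 72 h to control within each passage, with a grey line from the lowest to the highest. A small constant was added to each CPM before the ratio. All 3 passages share a sign in every list shown, and passage 8 (replicate 3) lies farthest from 0 for interferon-stimulated genes (3.28, against 1.74 and 1.23) and for histone genes (-4.58, against -1.52 and -2.92).

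Genes of cholesterol and fatty acid synthesis, targets of the SREBP factors, were higher nearly throughout. SCD, the desaturase that makes monounsaturated fatty acids (chromosome 10, 100347124 to 100364834, plus strand), was at 172, 143 and 171 CPM in controls and 4130.3, 5273 and 5176 CPM at 72 h. It rose by 4.91 ± 0.25 (adjusted p = 3.89e-05) and by 4.58, 5.20 and 4.92 within the 3 passages. INSIG1, whose product holds SREBP back in the endoplasmic reticulum, and MSMO1, a sterol oxidase, rose by 3.47 ± 0.42 and 2.96 ± 0.39 (adjusted p = 0.000724 and 0.000892). Of 34 genes, all tested, 29 rose and 0 fell, with a median of 1.80, or 28 and 1.47 without 72 h replicate 3. The rises spanned the mevalonate steps (HMGCS1 1.05, MVD 2.44), sterol steps (LSS 2.55, DHCR7 2.61) and fatty acid synthesis (ACSS2 2.83, FASN 2.66), and the factor genes SREBF1 and SREBF2 rose by 1.81 and 1.51. The 5 that did not pass were ELOVL6, PMVK, ACACA, ME1 and TM7SF2.

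Lysosomal and autophagy genes rose in 24 of 34, and 0 fell, with a median of 0.71. WIPI1, which binds phosphoinositides on forming autophagosomes, was at 4.52, 4.62 and 4.08 CPM in controls and 17.9, 26.7 and 32.4 CPM at 72 h (2.54 ± 0.22, adjusted p = 0.000195). SQSTM1, the p62 receptor of selective autophagy, rose from 57.6 to 84 CPM to 200 to 299 CPM (1.73 ± 0.27, adjusted p = 0.00163). GRN, the progranulin gene, and NPC1, the lysosomal cholesterol exporter, rose by 1.65 ± 0.19 and 1.56 ± 0.14 (adjusted p = 0.000492 and 0.000223), and the master factors TFEB and TFE3 by 1.5 and 0.98. For all 4 genes with library values or errors here, no treated library overlapped a control. Without 72 h replicate 3, 20 rose.

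Interferon-stimulated genes were higher in all 3 passages, by a list median of 1.74, 1.23 and 3.28 on the log2 scale in replicates 1, 2 and 3. IFI44L (chromosome 1, 78619922 to 78646145, plus strand), an interferon-induced gene, was at 4.64, 1.34 and 3.08 CPM in controls and 176, 80.6 and 1093 CPM at 72 h (7.22 ± 1.55, adjusted p = 0.00762). MX1, an antiviral GTPase, was at 41.9, 15.7 and 26.8 CPM against 484, 252 and 2073 CPM (5.06 ± 1.11, adjusted p = 0.00842). Replicate 3 was the highest and replicate 2 the lowest treated library in both, and the lowest treated library was still over 5-fold above the highest control. XAF1, which promotes cell death, went from 1.39, 0.43 and 1 CPM to 23.5, 12.5 and 147 CPM, and MX2, an antiviral relative of MX1, from 6.63, 2.15 and 4.01 CPM to 118, 58.2 and 562 CPM. TRIM22, a ubiquitin ligase, went from 8.92, 2.68 and 6.88 CPM to 113, 54.2 and 768 CPM, and OAS1, which makes oligoadenylates on sensing double-stranded RNA, from 16.3, 6.34 and 12.8 CPM to 199, 121 and 879 CPM. These 4 genes, in that order, rose by 6.03 ± 1.38, 5.85 ± 1.25, 5.67 ± 1.34 and 5.08 ± 1.03 (adjusted p = 0.00975, 0.00743, 0.0111 and 0.00601). Of 43 genes, all tested, 25 rose and 0 fell, against 20.4% higher over all genes, with a median of 2.55. The count was 16 with no filter on low counts and 11 without both libraries of replicate 1. Without 72 h replicate 3 it was 22 and the median 1.23, and the log2 fold changes were 5.42 for IFI44L, 3.71 for MX1, 4.28 for XAF1, 4.38 for MX2, 3.78 for TRIM22 and 3.77 for OAS1. The rises included STAT2 and IRF9, components of the interferon-activated complex (2.55 and 2.49), and IRF7 (3.17), whereas IFIT1, IFIT2, IFIT3, RSAD2 and CXCL10 did not pass (2.25, 0.74, 1.53, 3.47 and 4.38).

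Class I antigen presentation genes rose in 9 of 21, and 0 fell, with a median of 1.24. HLA-C was at 168, 84.4 and 144 CPM in controls and 336, 215 and 625 CPM at 72 h (1.57 ± 0.38, adjusted p = 0.0118). B2M, the light chain of class I molecules, rose by 1.56, and TAP1, the peptide transporter, by 2.14 ± 0.63 (adjusted p = 0.0271). NLRC5, the transactivator of class I genes, rose by 2.09 ± 0.72 (adjusted p = 0.0477) and HLA-F by 2.29 ± 0.64 (adjusted p = 0.0218). These values leaned on replicate 3, without which 5 genes rose, the median was 0.52, and TAP1, NLRC5 and HLA-F stood at 1.12, 0.78 and 1.29. Leaving out control 1, 2 or 3 gave 5, 4 and 4 rises, and leaving out 72 h replicate 2 gave 14. TAP1 and NLRC5 lost their calls without 72 h replicate 3 or any 1 control (0.0628 to 0.172), and HLA-F without any 1 control (0.0508 to 0.0764). Checkpoint and costimulatory ligand genes rose in 5 of 9 tested genes of 15, and 0 fell. TNFSF9, the ligand of the receptor 4-1BB, was at 2.53, 1.66 and 1.93 CPM against 26.3, 18.5 and 91 CPM (4.46 ± 0.69, adjusted p = 0.00209, and 3.46 without 72 h replicate 3). NT5E, the ectonucleotidase CD73, and CD276 rose by 1.23 ± 0.24 and 0.77 ± 0.17 (adjusted p = 0.00413 and 0.00687). PDCD1LG2, the PD-L2 gene, rose by 1.71 ± 0.43 (adjusted p = 0.0118), a call lost without control 2 (0.0512), and the PD-L1 gene CD274 had a log2 fold change of 0.77 that did not pass. The fifth was NECTIN2, given above.

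Cytokine genes moved both ways, and the lowest log2 fold change among named genes was that of IL6. IL6 (chromosome 7, 22725884 to 22732002, plus strand), which encodes an inflammatory cytokine, was at 24.5, 34.7 and 18.1 CPM in controls and 0.564, 0.114 and 1.61 CPM at 72 h (-5.09 ± 0.81, adjusted p = 0.00225, and -6.21 without 72 h replicate 3). IL1B was at 89.8, 88.8 and 82.3 CPM against 5.58, 15.4 and 1.3 CPM (-3.54 ± 0.70, adjusted p = 0.00537, and -4.63 without 72 h replicate 2). LIF, of the IL-6 family, fell by 2.15 ± 0.41 (adjusted p = 0.00326), while IL11 of the same family went from 15.6, 10.4 and 13.9 CPM to 68.8, 71.2 and 54.2 CPM. Of 27 tested genes of 34 for cytokines, chemokines and NF-kB feedback, 4 rose and 4 fell, fewer than over all genes in each direction. CCL5, TNFAIP2 and IL18 were the other rises (2.13, 0.94 and 0.70) and NFKBIZ the other fall (-0.65). There were 2 rises without control 1 and 7 with the replicate block.

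Genes downstream of ERK and AP-1 were split, 9 rises and 5 falls among 24 tested of 25. ATF3, a stress-induced factor, fell from 79.6, 89.8 and 98.5 CPM to 7.44, 9.06 and 12 CPM (-3.23 ± 0.39, adjusted p = 0.000732), and the AP-1 subunit gene FOSB by 1.74 ± 0.39 (adjusted p = 0.00817). JUNB and JUND, other AP-1 subunits, rose by 1.73 and 1.36. The feedback genes SPRY4 and SPRY1 went opposite ways, SPRY4 from 4.52, 6.82 and 10.8 CPM to 45, 47.4 and 13.8 CPM (2.27 ± 0.54, adjusted p = 0.0114) and SPRY1 from about 1 CPM to at most 0.371 CPM (-2.20 ± 0.48, adjusted p = 0.00635). Leaving out control 1, 2 or 3 gave 4, 5 and 6 rises and leaving out 72 h replicate 1 or 2 gave 5, and 3 fell when control 2 or 3 or 72 h replicate 1 was left out. In the receptor family of EGF, ERBB2 rose by 0.98 ± 0.12 and the ligand gene NRG1 fell by 0.96 ± 0.16 (adjusted p = 0.000588 and 0.00185). ERBB3 was the other rise among 10 tested of 12 (0.51 ± 0.16, adjusted p = 0.0311), lost without 72 h replicate 3 or any 1 control (0.0674 to 0.108).

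WNT-related genes rose in 7 and fell in 1 of 24 tested of 30, so 33.3% were called, against 39.8% of all tested genes. WNT7A went from 29.3, 33.6 and 32.5 CPM to 142, 103 and 99.2 CPM (1.85 ± 0.16, adjusted p = 0.000195), and WNT9A rose by 1.87 ± 0.28 (adjusted p = 0.00115). LGR6, an R-spondin receptor that marks epithelial progenitors, was at 1.09, 0.215 and 1.29 CPM against 11.7, 7.01 and 60.4 CPM (4.97 ± 1.13, adjusted p = 0.00948, and 3.48 without 72 h replicate 3). ZNRF3, which removes WNT receptors from the surface, fell by 1.03 ± 0.15 (adjusted p = 0.00115), and without 72 h replicate 3 the list had 6 rises and 2 falls. Notch genes had 0 rises and 2 falls among 16 tested of 19, HES1, a Notch effector (-1.23 ± 0.20, adjusted p = 0.00187), and the ligand gene DLL1 (-0.93 ± 0.25, adjusted p = 0.0173). DLL1 lost its call without control 2 or control 3 (0.0633 and 0.0502), and 2 Notch genes rose without 72 h replicate 2 and 1 without 72 h replicate 3. Targets of YAP and TEAD had 2 rises and 3 falls among 16 tested of 18. ASAP1 fell by 0.81 ± 0.14 (adjusted p = 0.00233) and AMOTL2 by 0.90 ± 0.30 (adjusted p = 0.0392), the latter lost without 72 h replicate 2 or any 1 control (0.0752 to 0.102). TGFB2 and NT5E, given above, and ARHGEF17 (0.57) were the other calls. Rises numbered 1 and falls 2 without control 1 or control 3, and rises 1 without 72 h replicate 1.

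Stress and metabolic genes showed mixed changes. The inducible heat shock protein genes HSPA1A and HSPA1B, near-identical copies whose reads may be split, rose from 53.7, 50.5 and 59.9 CPM to 282, 251 and 400 CPM (2.51 ± 0.23, adjusted p = 0.000215) and by 2.32 ± 0.28 (adjusted p = 0.000597). The mitochondrial chaperonin gene HSPD1 fell by 1.61 ± 0.23 and the cytosolic chaperonin gene CCT5 by 1.08 ± 0.20 (adjusted p = 0.000974 and 0.00312). The heat shock list had 5 rises and 8 falls among 23, or 3 and 6 without control 1 or control 3 and 2 and 3 without control 2. In the list of the unfolded protein and amino acid response, 4 rose and 2 fell among 28 tested of 29. That made 21.4% called, against 39.8% of all tested genes. DNAJB9, a chaperone of the endoplasmic reticulum, rose by 1.24 ± 0.19 (adjusted p = 0.00137), and PPP1R15A, which reverses the stress block on translation, fell by 1.06 ± 0.24 (adjusted p = 0.00683). HSPA5 (1.04), DNAJC3 (0.64) and TRIB3 (1.60) were the other rises and ATF3 the other fall. TRIB3 lost its call without any 1 control (0.0538 to 0.0848) and stood at 0.86 without 72 h replicate 2. The list had 1 rise without control 1 or control 3, and 3 rises and 4 falls without 72 h replicate 2.

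Hypoxia and glycolysis genes had 11 rises and 8 falls among 34. VEGFA, the angiogenic growth factor, was at 153, 252 and 278 CPM in controls and 767, 1122 and 1711 CPM at 72 h (2.40 ± 0.37, adjusted p = 0.00144), and SLC16A3, a lactate exporter, rose by 1.84 ± 0.30 (adjusted p = 0.00184). CA9, the carbonic anhydrase that is a standard marker of hypoxia, went the other way, from 32.7, 49.8 and 42.2 CPM to 1.47, 9.51 and 1.24 CPM (-3.34 ± 0.87, adjusted p = 0.0163, and -4.93 without 72 h replicate 2). The glycolytic enzyme genes GPI, PFKP, GAPDH, ENO1, TPI1 and LDHA fell by 0.96, 0.89, 0.84, 0.79, 0.69 and 0.58. Falls numbered 3, 4 and 4 without control 1, 2 and 3. EGLN3, an oxygen sensor, rose by 3.77 ± 1.01 (adjusted p = 0.0189), or 1.75 without 72 h replicate 3, and lost its call without any 1 control (0.0593 to 0.0689). NRF2 targets had 5 rises and 1 fall among 29, so 20.7% were called, against 39.8% of all tested genes. HMOX1, heme oxygenase, and ABCC3, a transporter, rose by 1.80 ± 0.36 and 1.37 ± 0.26, and GCLM, of glutathione synthesis, fell by 1.06 ± 0.24 (adjusted p = 0.00425, 0.00372 and 0.00697). UGDH (0.74) and AKR1C1 were among the other rises. AKR1C1 was at 8.43 to 19.3 CPM in controls and 67.8, 49.6 and 684 CPM at 72 h (4.39 ± 1.21, adjusted p = 0.0212, and 2.22 without 72 h replicate 3), and lost its call without that library or any 1 control (0.0523 to 0.0775). The rises numbered 3 without any 1 control, 3 (with 3 falls) without 72 h replicate 3, 8 without 72 h replicate 2 and 8 (with 2 falls) with the replicate block.

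Nuclear genes of oxidative phosphorylation fell in 16 of 46, and 0 rose, with a median of -0.33. CYC1, of complex III, went from 153, 171 and 162 CPM to 103, 87.7 and 74.2 CPM (-0.88 ± 0.14, adjusted p = 0.00163), and ATP5MC1, of the ATP synthase, fell by 1.07 ± 0.23 (adjusted p = 0.00594). The falls numbered 10, 7 and 11 without control 1, control 2 and 72 h replicate 3. Of 13 mitochondrially encoded mRNAs 0 passed in either direction in edgeR, with 1 at an unadjusted p under 0.05, 1 higher in DESeq2 and 1 higher in edgeR without 72 h replicate 3. Their share with other mitochondrial genes was 0.137%, 0.109% and 0.150% of counts in controls and 0.147%, 0.160% and 0.167% at 72 h (exact permutation test, two-sided p = 0.2). Proteasome subunit genes fell in 9 of 31, the largest fall that of PSMC3 (-0.76 ± 0.19, adjusted p = 0.0123). Leaving out control 1, 2 or 3 gave 2, 1 and 1 falls, and leaving out 72 h replicate 2 or 3 gave 3.

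**Figure D5:**
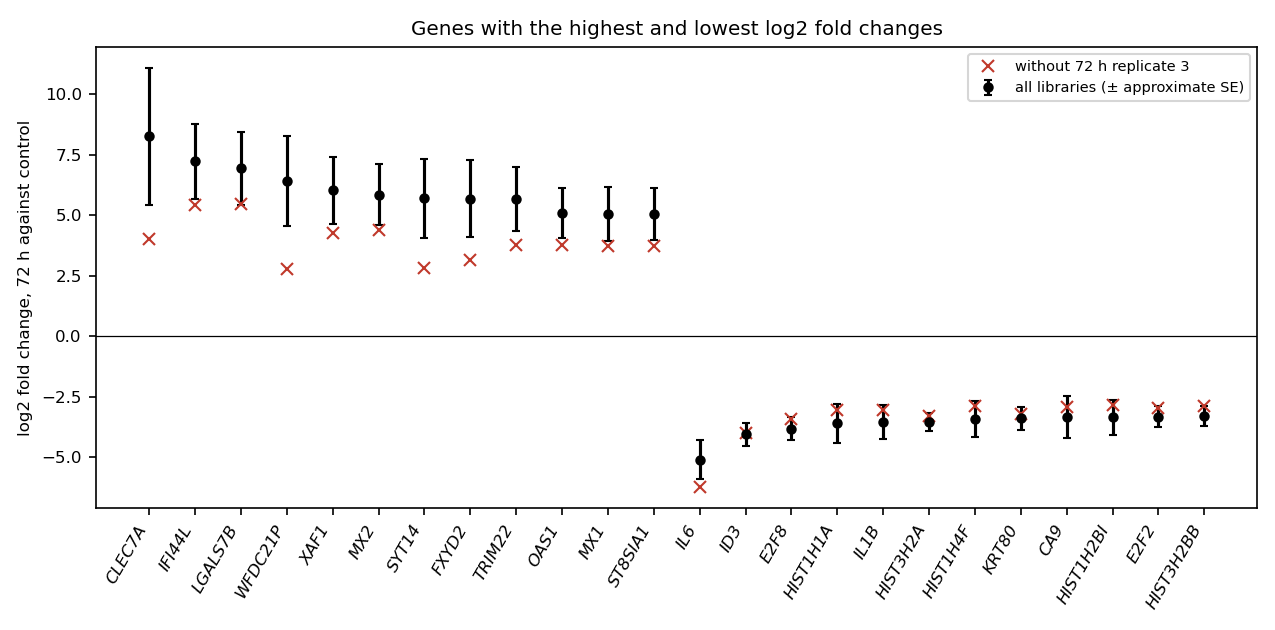
Black points give log2 fold changes (72 h against control, edgeR) with their approximate SE for the 12 highest and 12 lowest genes of the naming rule, and red crosses give the value without 72 h replicate 3. The 12 highest all drop without that library, CLEC7A from 8.26 to 4.0, while ID3 and HIST3H2A change little.

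Beside the interferon genes, the highest log2 fold changes belonged to genes that were near 0 in controls and rose mostly in replicate 3. CLEC7A, a C-type lectin receptor, was at 0, 0.0537 and 0.215 CPM in controls and 2.14, 0.684 and 79.3 CPM at 72 h (8.26 ± 2.82, adjusted p = 0.0464, and 4.0 without 72 h replicate 3 or 9.57 without control 3). LGALS7B, a keratinocyte galectin with the near-identical copy LGALS7, was at 0.0537 to 0.215 CPM against 10.1, 1.2 and 36.4 CPM (6.93 ± 1.52, adjusted p = 0.00842, and 5.45 without 72 h replicate 3). ST8SIA1, a sialyltransferase of ganglioside synthesis, was at 0.723, 0.43 and 0.502 CPM against 7.55, 7.24 and 40.8 CPM (5.05 ± 1.09, adjusted p = 0.00773, and 3.74 without it). WFDC21P, SYT14 and FXYD2, at no more than 0.376 CPM in controls, were at 31.4, 29.8 and 42.2 CPM in 72 h replicate 3 and at 0.627 to 3.44 CPM in replicates 1 and 2. They rose by 6.41 ± 1.85, 5.70 ± 1.64 and 5.68 ± 1.59 (adjusted p = 0.0249, 0.025 and 0.0224), or by 2.77, 2.82 and 3.15 without 72 h replicate 3. Without any 1 control the calls of CLEC7A, WFDC21P, SYT14 and FXYD2 were lost (0.0724 to 0.132), and those of CLEC7A, SYT14 and FXYD2 also without 72 h replicate 3 (0.277, 0.0554 and 0.055). Control levels of these genes rest on a few counts, so the folds are imprecise. No gene lay under 0.5 CPM in every control and at 5 CPM or more in every 72 h library, and none did the reverse.

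Against the 48 h libraries of the series, 0 of 15440 genes (0%) passed at 72 h in edgeR, with 1382 genes at an unadjusted p under 0.05. DESeq2 called 33 higher and 17 lower at 72 h.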

How the data were processed

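RNA of 9 libraries of the line UPCI-SCC-040 was sequenced, and the 6 of the 72 h and control groups are compared here. The values are the authors' deposited counts, whole numbers of reads per gene with no normalization. Per the submitters' processing notes, the tools were featureCounts 1.5.0-p1, STAR 2.5.2a, FastQC 0.11.5 and bcl2fastq 2.17.1.14, and the build was hg38. Which annotation release was counted, whether strand was used and how multiply matching reads were handled is not given in the sources used here. Reads of overlapping, antisense or near-identical genes may therefore be shared or lost.

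Genes were filtered with filterByExpr, scaled with TMM and tested in edgeR 4.0.16 (R 4.3.3) by the robust quasi-likelihood test with group as the only term over all 9 libraries, which share 1 estimate of the spread with 6 residual degrees of freedom. P-values were adjusted by Benjamini-Hochberg over all tested genes, and the call threshold was 0.05. The approximate SE is the absolute log2 fold change divided by the square root of F. Positions come from GENCODE 29 (GRCh38). The test was checked on simulated counts.

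The gene lists and the genes named were chosen with earlier results of these data known. By the naming rule, genes called without overlap between groups and reaching a mean of 10 CPM in either were ranked by log2 fold change, and the 12 at each end were named. For each list it took the 4 largest called changes at 1 CPM or more plus the largest in the direction with fewer calls (with under 2 calls, the 2 smallest p-values). It also took genes under 0.5 CPM in each control and at 5 CPM or more in each 72 h library, or the reverse, and 13 fixed pathway and control genes. Members given with a log2 fold change alone were chosen after their values were seen. The labels give same-numbered libraries the same passage, which pairs them; deviations of such libraries from their group means correlated at 0.04, 0.11 and 0.10 in the 3 passages. Log2 ratios within a passage were taken after 0.5 was added to each CPM, which draws those of genes at low levels toward 0. The fit with passage as a replicate block was an alternative. Other alternatives were another scaling, other filters, a fold threshold, the 6 libraries alone, DESeq2 1.42.0, limma 3.58.1 with voom weights, and leaving out libraries. Some genes that the naming rule took are not reported here, and counts over lists include them.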

Additional observations from a re-analysis of the deposited data

How the results depend on the processing

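The counts of 3151 higher and 3001 lower genes stayed within 1.5 times under another scaling, other filters, DESeq2, voom weights and the 6 libraries alone. With the replicate block, the paired analysis by passage, 3303 genes were higher and 3162 lower, and 5905 of 6152 calls were kept. A test against a fold threshold called 326 higher and 183 lower, fewer because it asks more of each gene. Leaving out 1 library or 1 passage gave 1551 to 3164 higher and 1051 to 2841 lower genes; the cause was not tested. In 3686 of the 6152 called genes the call held without any 1 of the 6 libraries. Of 181 named genes called, 132 kept the call without any 1 library, and all 181 kept their sign under every alternative run. Of calls of named genes, the fold threshold ended 128, leaving out both libraries of replicate 1, 2 or 3 ended 72, 71 and 32, leaving out control 1, 2 or 3 ended 32, 44 and 38, and no filter on low counts, which adds genes to the test, ended 31, among them XAF1, TRIM22, HIST1H1A, HIST1H4F, CA9, COL1A1, MCM10, CDKN2C, SPRY4 and LGR6; voom weights ended 10 and the 6 libraries alone 8. The replicate block ended 1 (CRB3) and added 3 (FN1, MAP2 and EGFL7). Leaving out both libraries of replicate 1 left 9 rises among SMAD targets, 5 among collagens, 4 among integrins and 1 among class I genes, and 10 falls among ribosomal protein genes. Leaving out those of replicate 2 left 7 falls among recombination and Fanconi genes, 18 in ribosome biogenesis and 10 among ribosomal protein genes, and 5 rises among basal genes. Between 72 h and 48 h, DESeq2 called 33 higher and 17 lower genes where edgeR called 0 and 0. The depth of 13288016 to 18153278 counts leaves genes near 1 CPM with few counts, and 3 libraries a group limit the precision more than depth does for abundant genes.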
